A study of Triticum aestivum with 24 samples.

Results

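The gibberellin signalling genes measured in wheat (Triticum aestivum) flag leaves and stems were the DELLA genes Rht-B1 and Rht-D1, the receptor gene gid1 and the F-box gene gid2. They were taken by name and make up 4 of the 26 genes with values, each with 1 source sequence. RNA was sequenced at 14 days past anthesis (DPA) from field-grown plants of 2 near isogenic lines (NILs). The semi-dwarf NIL carried the Rht-B1b allele, brought from the donor Hi-Line into the spring wheat Fortuna by repeated backcrossing, and the standard height line was Fortuna itself, with the wild-type Rht-B1a allele. Leaf Rht-B1b, leaf Rht-B1a, stem Rht-B1b and stem Rht-B1a had 3 tissue samples each, and leaf RNA came from the flag leaf while stem RNA came from tissue between the first and second internode.

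Several features of these lines and samples bear on every value. Only 1 NIL stands for the Rht-B1b allele, and a NIL can keep donor DNA next to the selected gene. The study's methods describe a replicate once as tissue of several plants of a row and once as 1 plant, so n = 3 counts rows or plants of different rows. The labels list 2 libraries for each tissue sample, 24 in all, whereas the values come as 12 columns, so each column was counted as 1 sample. Values are reads corrected for transcript length and sequencing depth (RPKM), which the authors rescaled in each sample so that actin had 1432.5 in all 12. A value is therefore a level per transcript length relative to actin. Read counts are unknown, so the error of each value rests on the spread between samples. In whole organs, fewer cells of a type and less RNA per cell cannot be told apart. The leaf and stem labels were checked with genes of the photosynthetic enzyme RuBisCO. The 3 rbcS sequences averaged 9.93 to 64.0-fold higher in leaves than in stems of the same line, with no overlap between the tissues.

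Gibberellin is a growth hormone, and DELLA proteins are the nuclear repressors that hold growth back in its absence. When gibberellin binds the receptor GID1, the complex grips the DELLA protein through its N-terminal part. The F-box protein GID2, known from rice, then marks the DELLA for breakdown, and stems and leaves elongate. The Rht-B1b allele has an early stop codon in the stretch that encodes this N-terminal part, and the plants respond poorly to gibberellin. In Arabidopsis, DELLA proteins are known to raise the transcripts of GID1 receptors, while gibberellin lowers them. The lines were compared here to see whether the semi-dwarfing allele was accompanied by other transcript levels of these pathway genes, in which tissue, and in what proportion to each other.

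Rht-B1, the DELLA gene that carries the semi-dwarfing mutation, was higher in the Rht-B1b NIL in both tissues. In leaves the 3 samples had 2344, 2961 and 1916.5 RPKM in Rht-B1b, against 1473, 972 and 904 RPKM in Rht-B1a. In stems they had 4869, 4168 and 4499 RPKM in Rht-B1b, against 1804, 1917 and 1748 RPKM in Rht-B1a. The lines did not overlap in either tissue, and the ratio of means was 2.16 in leaves and 2.48 in stems. On the log2(RPKM + 1) scale the difference was 1.12 in leaves (standard error 0.20, adjusted p = 0.0249) and 1.31 in stems (standard error 0.11, adjusted p = 0.0156). These are adjusted p-values from limma, two-sided, over the 25 genes other than actin, with a threshold of 0.05. The study paired the lines by adjacent rows without naming the pairs, so samples with consecutive numbers were taken as pairs 1 to 3 in each tissue, the order in which values are listed here. The stem call was lost without stem pair 1 (log2 difference 1.24, adjusted p = 0.0581 from limma) and the leaf call with a pseudocount of 10 in place of 1 (log2 difference 1.11, adjusted p = 0.0927 from limma). Reads had to match a listed sequence at 100% over at least 50 bp, and whether the 2 alleles matched equally well was not tested.

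Rht-D1, the homeologous DELLA gene of the D genome, is listed under its tall D1a form, and plants with its semi-dwarfing allele were not analysed here. Its leaf samples had 806, 848 and 770.3 RPKM in Rht-B1b, against 900.4, 655 and 568 RPKM in Rht-B1a. Its stem samples had 2009.6, 1489 and 1720.1 RPKM in Rht-B1b, against 1220.2, 1459 and 1256 RPKM in Rht-B1a. The lines overlapped in leaves and were just apart in stems, where the lowest Rht-B1b value stood next to the highest Rht-B1a value. The log2 difference was 0.22 in leaves (95% interval -0.19 to 0.63, adjusted p = 0.519 from limma) and 0.40 in stems (95% interval -0.11 to 0.91, adjusted p = 0.154 from limma), so neither passed. The stem estimate was -0.043 with another scaling, to the geometric mean of 19 genes with actin among them. Near-identical parts of Rht-B1 and Rht-D1 can draw reads from both genes, which makes the split of reads between them uncertain.

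The receptor gene gid1 was higher in the stems of the Rht-B1b NIL. The stem samples had 618, 491 and 755 RPKM in Rht-B1b, against 306, 193 and 192 RPKM in Rht-B1a, a ratio of means of 2.70. In leaves they had 807, 891 and 718 RPKM in Rht-B1b, against 1116, 685 and 645 RPKM in Rht-B1a. All Rht-B1b stems lay above all Rht-B1a stems, while in leaves the lines overlapped and the highest value belonged to an Rht-B1a sample. The stem log2 difference was 1.44 (standard error 0.23, limma adjusted p = 0.0241). It no longer passed without stem pair 1 (log2 difference 1.66, adjusted p = 0.0794 from limma) and without stem pair 2 (log2 difference 1.49, adjusted p = 0.123 from limma). In leaves the log2 difference was 0.022 (95% interval -0.44 to 0.49, adjusted p = 0.957 from limma), and its sign depended on the scaling, with -0.018 for the geometric mean of 19 genes.

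The F-box gene gid2 did not pass in either tissue. Its leaf samples had 1380.3, 1731 and 1149 RPKM in Rht-B1b, against 1479, 966 and 847 RPKM in Rht-B1a. Its stem samples had 874, 821 and 804 RPKM in Rht-B1b, against 931, 1229 and 827 RPKM in Rht-B1a. The lines overlapped in both tissues, although the stem value of Rht-B1b was below that of Rht-B1a in 3 of 3 pairs. The log2 difference was 0.39 in leaves (95% interval -0.090 to 0.88, adjusted p = 0.280 from limma) and -0.24 in stems (95% interval -0.70 to 0.22, adjusted p = 0.267 from limma).

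**Figure D1:**
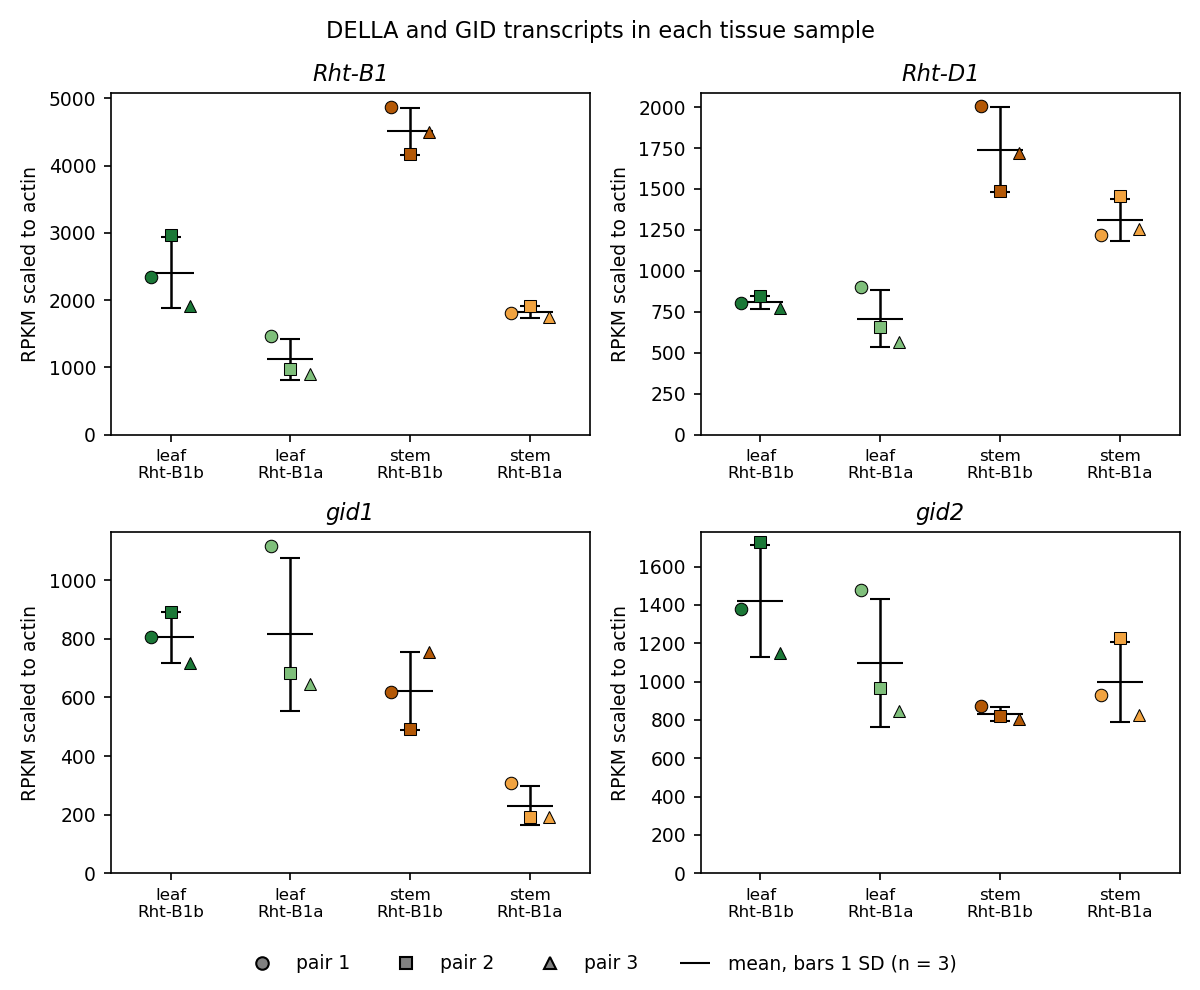
RPKM scaled to actin (y axis) of Rht-B1, Rht-D1, gid1 and gid2 in each tissue sample, by tissue and line (x axis). Symbols mark the 3 pairs, long lines the means and bars 1 SD (n = 3); Rht-B1 was apart between the lines in both tissues, gid1 and Rht-D1 in stems only, and the stem Rht-B1b samples held the highest Rht-B1 values, 4168 to 4869 RPKM.

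The counts are set here against those of all genes tested. In leaves 1 of 4 passed, as higher in Rht-B1b, where 4% of the 25 genes passed, and that gene was Rht-B1. Their median log2 difference was 0.31, against 0.092 over all 25 genes. In stems 2 of 4 passed, Rht-B1 and gid1, where 32% of genes passed as higher and 0% as lower. The median was 0.85, against 0.56 over all genes, and 22 of the 25 estimates lay above 0. Non-overlap of the lines was likewise common in stems, where all Rht-B1b samples lay above all Rht-B1a samples for 60% of genes and for 3 of 4 gibberellin genes. In leaves this held for 4% of genes, again Rht-B1 alone. Exact permutation tests of 3 against 3 samples cannot give less than p = 0.1, the value reached by Rht-B1 in both tissues and by Rht-D1 and gid1 in stems.

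Most stem estimates moved with the gene chosen as the common level. The geometric mean of 19 genes left out the gibberellin genes and the rbcS sequences but kept actin and rbcL. With it, the median stem difference over all genes moved by -0.44 on the log2 scale. Rht-B1 then had a stem difference of 0.86 and gid1 of 1.00, both with an adjusted p = 0.0509 from limma, which misses the threshold. Scaled to the median gene, the median moved by -0.30, and Rht-B1 (1.01) and gid1 (1.14) passed. In leaves the median moved by -0.040 and -0.18 under these scalings, and the Rht-B1 difference was 1.08 (adjusted p = 0.183 from limma) and 0.94 (adjusted p = 3.14e-05 from limma). The fits with the median gene gave every gene the same standard error, so their p-values do not carry the spread of the single gene. The part of actin itself in the stem differences was not tested.

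**Figure D2:**
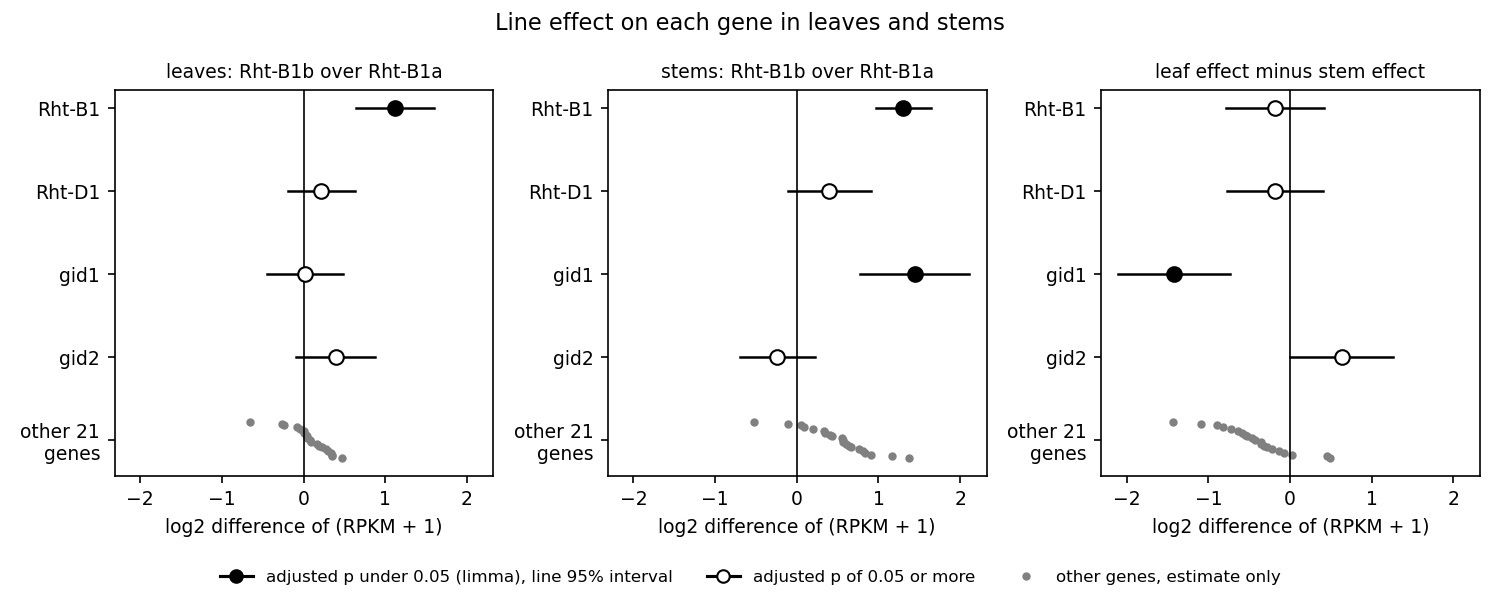
Rht-B1b over Rht-B1a in leaves, in stems, and the leaf difference minus the stem difference (log2 difference of RPKM + 1, x axis) for Rht-B1, Rht-D1, gid1 and gid2, with bars for 95% intervals and small dots for the other 21 genes. Filled points passed at an adjusted p under 0.05 (limma): Rht-B1 in both tissues, gid1 in stems (1.44) and gid1 for the difference between tissues (-1.42).

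The difference between the lines in gid1 differed between the tissues. The leaf difference minus the stem difference in log2 units was -1.42 (standard error 0.31, limma adjusted p = 0.00944), in a fit of all 12 samples that kept the pairs of each tissue as blocks. In this comparison 12% of the 25 genes passed, all as lower, and gid1 was 1 of them. The median over all 25 genes was -0.36, and 4 of the 25 estimates lay above 0. For Rht-B1 the same difference was -0.19 (95% interval -0.78 to 0.41, adjusted p = 0.580 from limma) and for Rht-D1 it was -0.18 (95% interval -0.77 to 0.41, adjusted p = 0.580 from limma). For gid2 it was 0.63 (95% interval 0.0026 to 1.26, adjusted p = 0.123 and unadjusted p = 0.0492 from limma), the opposite sign to gid1. The call on gid1 was lost without leaf pair 1 (log2 difference -1.17, adjusted p = 0.0718 from limma), without leaf pair 3 (log2 difference -1.49, adjusted p = 0.0603 from limma) and with the geometric mean of 19 genes (log2 difference -1.02, adjusted p = 0.0606 from limma).

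Both samples of leaf pair 1 had a high general level. The geometric mean of the 19 other genes was 1956 RPKM in its Rht-B1b leaf, with 1473 and 1455 RPKM in the other Rht-B1b leaves, and 2054 RPKM in its Rht-B1a leaf, with 1422 and 1320.2 RPKM in the other Rht-B1a leaves. For each of Rht-B1, Rht-D1, gid1 and gid2, its Rht-B1a leaf was the highest of the 3 in that line, whereas the highest Rht-B1b leaf was that of pair 2. Without leaf pair 1 the leaf differences on the log2 scale were 1.34 for Rht-B1, 0.41 for Rht-D1, 0.27 for gid1 and 0.64 for gid2. Of these Rht-B1 passed and the others did not, gid2 at an adjusted p = 0.0523 from limma. In this fit the genes shared 1 standard error.

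Between the tissues, both DELLA genes were lower in leaves than in stems, and gid1 and gid2 were higher, except that gid2 turned lower with the geometric mean of 19 genes and Rht-B1 turned higher with Rht-D1 as the scale. Averaged over the lines, the leaf minus stem difference on the log2 scale was -0.83 for Rht-B1 (adjusted p = 0.000157 from limma) and -1.004 for Rht-D1 (adjusted p = 1.17e-05 from limma). It was 1.10 for gid1 (adjusted p = 1.25e-05 from limma) and 0.43 for gid2 (adjusted p = 0.0390 from limma). All 4 passed, in a comparison where 52% of the 25 genes passed as higher and 24% as lower in leaves. Scaling moved the median gene by -0.67 with the geometric mean and by 0.35 with the median gene. The directions of Rht-B1, Rht-D1 and gid1 held under both, while gid2 became -0.23 with the geometric mean (adjusted p = 0.164 from limma). The call on gid2 was also lost in 8 of 12 fits that left out 1 sample, at log2 differences down to 0.32.

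Within each line the tissue differences were not of the same size for every gene. For gid1 the leaf minus stem difference was 0.39 in Rht-B1b (95% interval -0.18 to 0.96, adjusted p = 0.214 from limma) and 1.81 in Rht-B1a (standard error 0.28, adjusted p = 1.56e-06 from limma). In Rht-B1b this estimate was -0.076 with the geometric mean of 19 genes and 0.81 with the median gene (adjusted p = 0.000830 from limma). The means were 805 ± 86.8 RPKM in leaves and 622 ± 132 RPKM in stems of Rht-B1b, and 815 ± 261 RPKM in leaves and 230.5 ± 65.7 RPKM in stems of Rht-B1a (SD, n = 3 each). The receptor gene was thus lowest in Rht-B1a stems, and the 3 other groups overlapped. Non-overlap of leaves above stems held for 48% of genes in Rht-B1b and 56% in Rht-B1a, and for gid1 in Rht-B1a only. The Rht-B1a stem samples enter this comparison, the line comparison in stems and the difference between tissues, so these are not separate observations.

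For gid2 the leaf minus stem difference was 0.75 in Rht-B1b (adjusted p = 0.0137 from limma) and 0.12 in Rht-B1a (95% interval -0.43 to 0.67, adjusted p = 0.660 from limma). Its means were 1420.2 ± 293 RPKM in leaves and 833 ± 36.5 RPKM in stems of Rht-B1b, and 1097 ± 336 RPKM in leaves and 996 ± 209 RPKM in stems of Rht-B1a. Ordered by mean, each group overlapped the next, and leaves and stems were apart only within Rht-B1b. As higher in leaves, 44% of genes passed in Rht-B1b, gid2 among them, and 52% in Rht-B1a, gid1 among them. The gid2 call in Rht-B1b was lost without the Rht-B1b leaf of pair 2 (log2 difference 0.60, adjusted p = 0.0911 from limma) and with the geometric mean of 19 genes (log2 difference 0.28, adjusted p = 0.236 from limma). For Rht-B1 the difference was -0.93 in Rht-B1b (adjusted p = 0.00223 from limma) and -0.74 in Rht-B1a (adjusted p = 0.0116 from limma). For Rht-D1 it was -1.10 in Rht-B1b (adjusted p = 0.000337 from limma) and -0.91 in Rht-B1a (adjusted p = 0.00194 from limma). The DELLA genes thus passed as lower in leaves within both lines, where 28% of genes did so in Rht-B1b and 24% in Rht-B1a. The Rht-B1 call in Rht-B1a was lost without the Rht-B1a leaf of pair 3 (log2 difference -0.61, adjusted p = 0.0567 from limma) and with the median gene (log2 difference -0.45, adjusted p = 0.0578 from limma), and divided by Rht-D1 the Rht-B1 difference was 0.17 in each line. Leaves and stems were taken from the same rows or plants, but the labels do not tie a leaf to its stem, so these p-values treat the tissues as independent.

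The levels of Rht-B1 ran from stems of Rht-B1b (4512 ± 350.5 RPKM) over leaves of Rht-B1b (2407 ± 525 RPKM) and stems of Rht-B1a (1823 ± 86.3 RPKM) to leaves of Rht-B1a (1116 ± 311 RPKM). Leaves of Rht-B1b and stems of Rht-B1a met at 1916.5 and 1917.1 RPKM, and the other neighbours were apart. Rht-D1 had another order, set by tissue first, with 1739.5 ± 261 RPKM in stems of Rht-B1b, 1312 ± 129 RPKM in stems of Rht-B1a, 808 ± 39.0 RPKM in leaves of Rht-B1b and 708 ± 172 RPKM in leaves of Rht-B1a. Only the leaf groups overlapped. In all 12 samples the Rht-B1 level was above the Rht-D1 level.

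A ratio of genes within a sample does not depend on the scaling to actin. The ratio of Rht-B1 to Rht-D1 in leaves was 2.91, 3.49 and 2.49 in Rht-B1b, against 1.64, 1.48 and 1.59 in Rht-B1a. In stems it was 2.42, 2.80 and 2.62 in Rht-B1b, against 1.48, 1.31 and 1.39 in Rht-B1a. In both tissues the lines were apart, and the mean ratio in Rht-B1b was 1.89 times that in Rht-B1a in leaves and 1.87 times in stems. The share of genes divided by Rht-D1 that were likewise apart was not counted. Rht-B1 made up 74.5 ± 3.20% of the summed DELLA transcript in Rht-B1b leaves and 61.1 ± 1.19% in Rht-B1a leaves (SD, n = 3 each). In stems it made up 72.3 ± 1.45% in Rht-B1b and 58.2 ± 1.44% in Rht-B1a. The sum of both genes was 3215 ± 564 RPKM in Rht-B1b leaves, 1824 ± 482 RPKM in Rht-B1a leaves, 6252 ± 611 RPKM in Rht-B1b stems and 3135 ± 209 RPKM in Rht-B1a stems.

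The log2 ratio of Rht-B1 to Rht-D1 differed between the lines by 0.90 in leaves (standard error 0.16, adjusted p = 0.0399 from limma), where 4% of genes divided by Rht-D1 passed as higher. The leaf call was lost without leaf pair 1 (log2 difference 0.94, adjusted p = 0.0741 from limma) and without leaf pair 2 (log2 difference 0.74, adjusted p = 0.0694 from limma). In stems the difference was also 0.90 (standard error 0.28) and missed the threshold at an adjusted p = 0.0928 from limma, with 0% of genes passing as higher or lower. It passed with the pairs left out of the fit (adjusted p = 0.0303 from limma) and in 1 fit of leaves and stems together (limma adjusted p = 0.0127). Left out in turn, stem pairs 1, 2 and 3 gave an adjusted p of 0.0640, 0.253 and 0.893 from limma, with differences of 1.00, 0.81 and 0.90. The stem standard error draws on the spread of all genes divided by Rht-D1, and the lines were apart in 3 of 3 stem pairs, by 0.71 to 1.09. The difference of the leaf and stem values was -0.0016 (95% interval -0.67 to 0.66, adjusted p = 0.996 from limma). Between tissues the log2 ratio, leaf minus stem, was 0.17 in both Rht-B1b (adjusted p = 0.457 from limma) and Rht-B1a (adjusted p = 0.452 from limma), in fits where 76% of genes divided by Rht-D1 passed as higher in Rht-B1b and 80% in Rht-B1a.

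**Figure D3:**
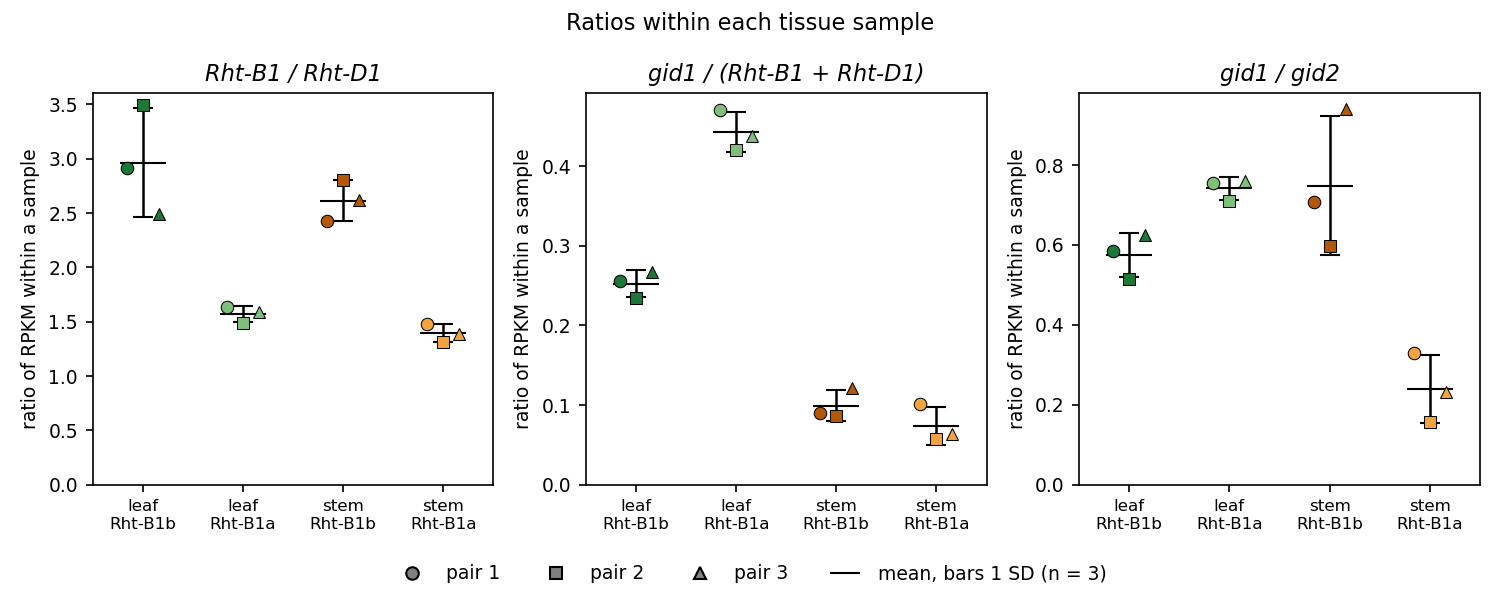
Ratio of RPKM within each tissue sample (y axes) for Rht-B1 to Rht-D1, gid1 to the sum of Rht-B1 and Rht-D1, and gid1 to gid2, by tissue and line (x axis), with pairs as symbols, means as long lines and bars of 1 SD (n = 3). The ratio of Rht-B1 to Rht-D1 was 1.31 to 1.64 in all Rht-B1a samples and 2.42 to 3.49 in all Rht-B1b samples, while the ratio of gid1 to gid2 separated the lines in opposite directions in leaves and stems.

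The gid1 transcript in proportion to the summed Rht-B1 and Rht-D1 transcripts was lower in leaves of the Rht-B1b NIL. In that NIL the sum includes transcript of the semi-dwarfing allele, and in both lines it leaves out the DELLA gene Rht-A1. The ratio of gid1 to the sum of Rht-B1 and Rht-D1 in leaves was 0.256, 0.234 and 0.267 in Rht-B1b, against 0.470, 0.421 and 0.438 in Rht-B1a. In stems it was 0.0899, 0.0869 and 0.121 in Rht-B1b, against 0.101, 0.0573 and 0.0638 in Rht-B1a. The lines were apart in leaves and overlapped in stems, and each stem sample lay below each leaf sample. The DELLA sum was itself apart between the lines in both tissues and between the tissues in both lines. The share of genes divided by it that were apart was not counted. For gid1 to DELLA the log2 difference between the lines was -0.81 in leaves (standard error 0.16, adjusted p = 0.00934 from limma). In that fit 88.5% of the 26 genes divided by the DELLA sum passed as lower, so the call was shared by most genes. By itself, gid1 differed by 0.022 in leaves (adjusted p = 0.957 from limma), whereas the mean DELLA sum was 1.76 times as high in Rht-B1b. The leaf call was lost without leaf pair 2 (log2 difference -0.80, adjusted p = 0.0596 from limma) and without leaf pair 3 (log2 difference -0.86, adjusted p = 0.124 from limma).

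In stems the log2 difference in gid1 to DELLA was 0.45 (95% interval -0.21 to 1.12, adjusted p = 0.216 from limma), where 23.1% of genes passed as lower and 0% as higher. The leaf minus stem difference of the line effects was -1.26 (standard error 0.30), and at a limma adjusted p = 0.0522 it just missed the threshold. It passed with the pairs left out (adjusted p = 0.0214 from limma) and without stem pair 1 (log2 difference -1.58, adjusted p = 0.00632 from limma). Between tissues the log2 ratio was higher in leaves by 1.36 in Rht-B1b (adjusted p = 8.97e-05 from limma) and by 2.62 in Rht-B1a (adjusted p = 2.21e-07 from limma). As higher in leaves, 69.2% of genes divided by the DELLA sum passed in Rht-B1b and 76.9% in Rht-B1a.

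Relative to the F-box gene, the receptor gene gid1 rose in Rht-B1b stems. The ratio of gid1 to gid2 in stems was 0.708, 0.599 and 0.940 in Rht-B1b, against 0.329, 0.157 and 0.232 in Rht-B1a. In leaves it was 0.584, 0.515 and 0.625 in Rht-B1b, against 0.755, 0.709 and 0.761 in Rht-B1a. The lines were apart in both tissues, with Rht-B1b above in all stem pairs and below in all leaf pairs. The stem log2 difference was 1.68 (standard error 0.25, limma adjusted p = 0.0157), in a fit where 64% of genes divided by gid2 passed as higher. The leaf difference was -0.37 (95% interval -0.87 to 0.13, adjusted p = 0.375 from limma), with an exact permutation p = 0.1, the smallest that 3 against 3 samples allow. In that leaf fit 4% of genes divided by gid2 passed as lower and 0% as higher. How many genes divided by gid2 separated the lines without overlap was not counted in either tissue.

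The difference of these line effects, leaf minus stem, was -2.06 in log2 units (standard error 0.33, limma adjusted p = 0.00105), and 80% of genes divided by gid2 passed as lower in this comparison. Between tissues the log2 ratio of gid1 to gid2, leaf minus stem, was -0.36 in Rht-B1b (95% interval -0.94 to 0.22, adjusted p = 0.213 from limma), where 36% of genes divided by gid2 passed as higher and 48% as lower. In Rht-B1a it was 1.69 (standard error 0.27, adjusted p = 2.53e-05 from limma), where 48% of these genes passed as higher. Rht-B1a stems thus had the lowest ratio, 0.239 ± 0.0861, against 0.749 ± 0.174 in Rht-B1b stems, 0.575 ± 0.0554 in Rht-B1b leaves and 0.741 ± 0.0284 in Rht-B1a leaves (SD, n = 3 each). The F-box gene in proportion to the DELLA sum averaged 0.440 in Rht-B1b leaves and 0.597 in Rht-B1a leaves, and 0.134 in Rht-B1b stems and 0.316 in Rht-B1a stems, with no overlap of the lines in either tissue. No test was run on this last ratio. The DELLA sum itself was higher in Rht-B1b with no overlap, by a ratio of means of 1.76 in leaves and 1.99 in stems. Of the genes divided by this sum, 88.5% passed as lower in Rht-B1b leaves and 23.1% in Rht-B1b stems (limma). How many of them separated the lines without overlap was not counted.

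**Figure D4:**
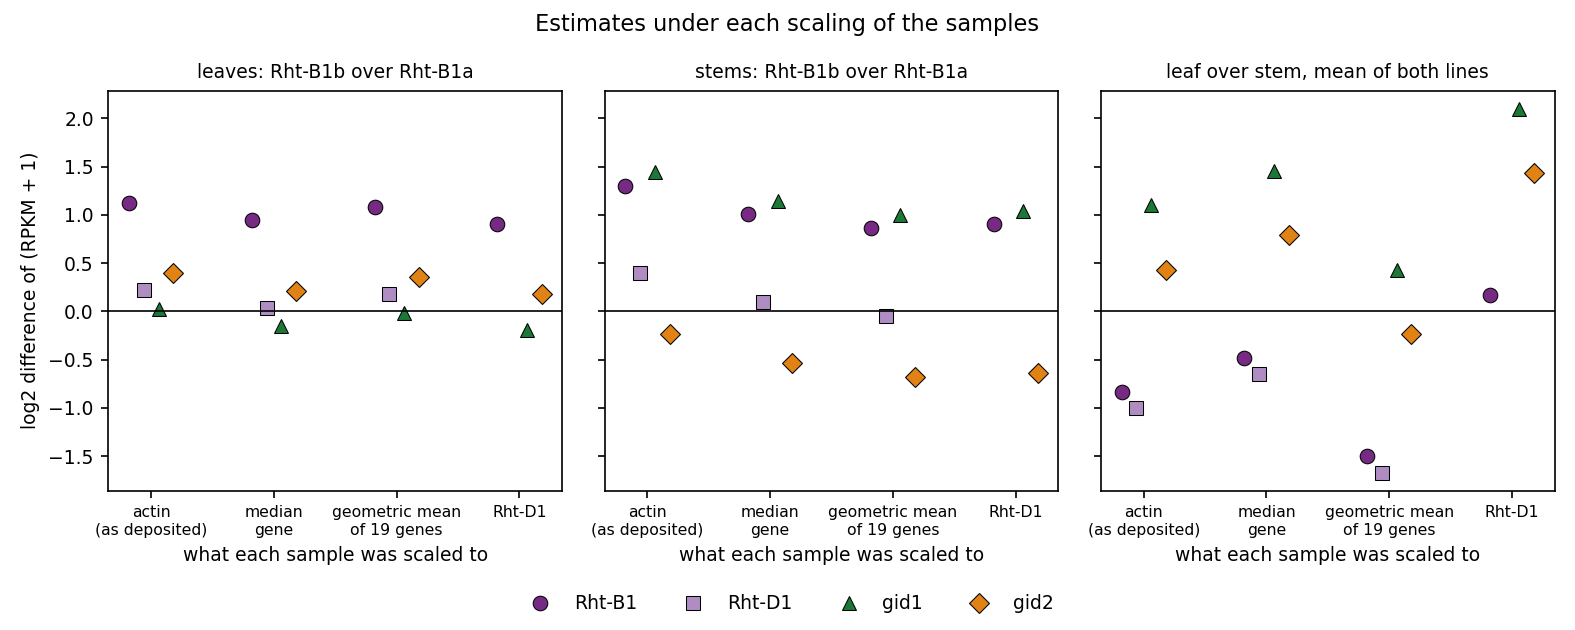
Log2 difference of RPKM + 1 (y axis) for Rht-B1, Rht-D1, gid1 and gid2 with samples scaled to actin, the median gene, the geometric mean of 19 genes or Rht-D1 (x axis), for the lines in leaves and in stems and for leaf over stem. Rht-B1 kept a positive line difference in both tissues and gid1 in stems under each scaling, whereas Rht-B1 for leaf over stem was 0.17 with Rht-D1 in place of -0.83 with actin, and gid2 for leaf over stem was -0.23 with the geometric mean.

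The genes whose profile over the 12 samples was most like each gibberellin gene were found by the root mean square difference of gene-centred log2 values, where smaller is more alike. For Rht-B1 they were Rht-D1 at 0.47 and GAPC8, a glyceraldehyde-3-phosphate dehydrogenase gene, at 0.55, against a median of 1.05 over 24 other genes. For Rht-D1 they were GAPC8 at 0.31 and Rht-B1 at 0.47, against a median of 0.96. The DELLA genes were thus within each other's closest 2. For gid1 they were starch synthase isoform IV at 0.39 and the starch synthase IIc precursor at 0.44, against a median of 1.10. For gid2 they were the sucrose transporter gene SUT2D at 0.31 and rbcL at 0.41, against a median of 0.85, although rbcL was listed at 0.117 to 1.79 RPKM, where the added 1 flattens its profile. All values share the actin scaling, and likeness of this kind is a description.

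Of a list of 12 genes of gibberellin synthesis, breakdown and signalling, 4 were measured, and they are the genes described here. The other 8 were not analysed here, among them the DELLA gene Rht-A1 and the GA20ox, GA3ox and GA2ox genes, whose enzymes make and inactivate gibberellin. In Rht-B1b leaves 1 of the 4 passed as higher and 0 as lower, where 4% of all 25 genes passed as higher. In Rht-B1b stems 2 of the 4 passed as higher and 0 as lower, where 32% of all 25 genes passed as higher. In both tissues 0% of genes passed as lower.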

How the data were processed

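Leaf and stem RNA at 14 DPA was compared between the Rht-B1b and Rht-B1a lines, with 3 tissue samples per group. The authors matched reads with ArrayStar (version and genome build not given in the sources used here) to sequences of selected wheat genes, at 100% over at least 50 bp. They deposited RPKM scaled to actin for 26 genes in 12 columns, and 1 of 27 lines was a repeat. How the 2 libraries of a sample were joined is not stated. No coordinates or sequences are given, because no genome of a stated build was used. The authors' own averages, standard errors, p-values and ratios were not used. Without read counts, counting intervals were not computed.

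Line differences were fitted to log2(RPKM + 1) in limma (version 3.58.1, R version 4.3.3), in each tissue apart, with no filter on low values. The pair of consecutive sample numbers was a block, because the study's methods name a paired test for lines in adjacent rows. Tissue differences came from 4 groups in 1 fit without a block, because leaves and stems of the same rows or plants could not be matched from the labels. The fits that compare tissues therefore treat them as independent. P-values were adjusted over 25 genes (Benjamini-Hochberg) and called under 0.05. For ratios, every gene was divided by the denominator without a pseudocount, which left 25 or 26 genes in a fit. The fit was tested on simulated data. The named genes were the 4 gibberellin genes, actin, and for each of the 4 its 2 most alike genes. The genes and lists were chosen with earlier results of these data known. Alternatives left out the block, each pair or sample and genes with a mean under 500 RPKM, used no pseudocount or one of 10 or 100, scaled to other genes, or fitted both tissues together. For the ratios the last was chosen after seeing the data.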

Additional observations from a re-analysis of the deposited data

Results flagged for a closer look

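The difference in gid1 between the Rht-B1b NIL and the Rht-B1a line differed between leaves and stems in a test of the difference itself. The line difference in leaves minus that in stems was -1.42 on the log2 scale (adjusted p = 0.00944 from limma). Per pair, Rht-B1b over Rht-B1a was 1.01, 1.34 and 1.98 in stems, and -0.47, 0.38 and 0.16 in leaves. The gid1 level was higher in Rht-B1b in 3 of 3 stem pairs and in 2 of 3 leaf pairs. Of all 25 genes, 22 had a line difference above 0 in stems and 20 in leaves. Over these genes the median line difference in leaves minus that in stems was -0.36.

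The ratio of gid1 to gid2 differed likewise, with a leaf minus stem difference of -2.06 on the log2 scale (adjusted p = 0.00105 from limma). Per pair, Rht-B1b over Rht-B1a was 1.11, 1.93 and 2.02 in stems, and -0.37, -0.46 and -0.29 in leaves. The same comparison called 80% of genes divided by gid2, and both results rest on the same 12 samples.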

How the results depend on the processing

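Of 621 alternative values for 54 results, 547 kept their side of the threshold or, for counts, stayed close. A change of direction was counted only where either fit passed, so the 547 include changes of sign between values that did not pass. Among these was gid1 in leaves, at 0.022 with actin and -0.018 with the geometric mean of 19 genes. In leaves, genes past the threshold in limma numbered 0 instead of 1 with pseudocounts of 10 and 100 and with the geometric mean of 19 genes, and 2 with the median gene. With these first 3 settings 0 gibberellin genes passed, and the Rht-B1 difference was 1.11, 1.05 and 1.08 on the log2 scale (adjusted p = 0.0927, 0.249 and 0.183). At an unadjusted p under 0.05 there were then 3, 3 and 5 genes, 1 of them a gibberellin gene. Leaving out each pair gave 1 to 2 genes. In stems the 8 genes became 13 with no pseudocount, 14 with both tissues in 1 fit, 5 with the median gene and 0 with the geometric mean or Rht-D1, and 0 to 5 without single pairs (0 without pair 1). Where it was 0, an unadjusted p under 0.05 from limma was reached by 9 genes with the geometric mean, 4 with Rht-D1 and 12 without pair 1. With the geometric mean Rht-B1 was 0.86 and gid1 1.00 (both adjusted p = 0.0509). With Rht-D1 they were 0.90 and 1.04 (both adjusted p = 0.145). In both cases 0 gibberellin genes passed, and 0 to 2 did without single pairs, where Rht-B1 ran from 1.24 to 1.40 and gid1 from 1.18 to 1.66. Without stem pair 1, Rht-B1 was 1.24 (adjusted p = 0.0581).

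For leaf minus stem, Rht-B1 was 0.17 in Rht-B1b, in Rht-B1a and over both lines when scaled to Rht-D1, a scaling that left 2 gibberellin genes past the threshold. With the geometric mean, gid2 was -0.75 in Rht-B1a (adjusted p = 0.00588) and -0.23 over both lines, and without single samples it ran from 0.32 to 0.52 over both lines, missing the threshold in 8 of 12 cases. For the difference of line effects, gid1 was -1.11 with a pseudocount of 100 (adjusted p = 0.0525), -1.02 with the geometric mean (adjusted p = 0.0606) and -1.24 with Rht-D1 (adjusted p = 0.0675), with 0 gibberellin genes passing, and -1.63 to -1.15 without single pairs, with 0 to 1 passing. The 3 genes past the threshold became 1 with the geometric mean, 0 with Rht-D1 (4 at an unadjusted p under 0.05 from limma) and 0 to 3 without single pairs (0 without leaf pair 3, with 7 unadjusted). Without single pairs the leaf difference in Rht-B1 to Rht-D1 was 0.74 to 1.03 (adjusted p = 0.0741 without pair 1 and 0.0694 without pair 2) and that in gid1 to DELLA -0.86 to -0.78. The difference of line effects in gid1 to DELLA was -1.58 to -1.03. The cause of these changes was not tested.

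Without the pair as a block, the stem difference in Rht-B1 to Rht-D1 was 0.90 (adjusted p = 0.0303) and the difference of line effects in gid1 to DELLA was -1.26 (adjusted p = 0.0214). Both passed, and no other call on a gibberellin gene or ratio changed. The stem count became 12 genes. With both tissues in 1 fit the stem Rht-B1 to Rht-D1 difference of 0.90 passed (adjusted p = 0.0127). Deviations from the line means correlated within pairs over 25 genes at 0.53, -0.11 and 0.76 in leaves and at -0.36, 0.047 and 0.29 in stems. Pairs 1 and 3 in leaves thus deviated together. The samples of stem pair 1 tended to deviate in opposite directions, and the remaining pairs deviated together little or not at all. With 3 samples per group and unknown depth, intervals of about 1 on the log2 scale limit what can be told for gid2 and Rht-D1.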
